A study of Mus musculus with 55 samples.

Results

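The 10 genes described here belong to the circadian clock: Clock, the period genes Per1, Per2 and Per3, the cryptochrome genes Cry1 and Cry2, the nuclear receptor genes Nr1d1 and Nr1d2, and the output transcription factor genes Dbp and Tef. They were chosen by gene symbol, and each was read by 1 probe set in the deposited table. All 10 were among the 19938 genes with a probe set of 1 symbol and among the 14950 genes whose mean level passed the filter on low values. Their messenger RNA was measured in cerebella of C57Bl/6 mouse pups with 55 microarrays (Affymetrix Mouse Gene 1.0 ST), whose many short probes are spread along each transcript. Values are log2 expression levels, so a difference of 1 is a factor of 2. Every pup was injected under the skin each day, at postnatal days 4 to 21, and was sampled at day 22. The injection held chlorpyrifos oxon (CPO), the form of the insecticide chlorpyrifos that inhibits acetylcholinesterase, or dimethyl sulfoxide (DMSO), its vehicle.

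Crossing 4 genotypes with 3 treatments gave 12 groups. The mice labelled KO (Pon1-/-) carry no functional gene for paraoxonase 1, the esterase that hydrolyses CPO, by their label, and gave 4 arrays with vehicle, 5 with CPO at 0.35 mg/kg/day and 3 with CPO at 0.5 mg/kg/day. The mice labelled tgHuPON1Q192 (called Q192) carry a human PON1 transgene of the Q192 form and gave 4, 5 and 5 arrays at vehicle, 0.35 and 0.5. The mice labelled tgHuPON1R192 (called R192) carry the R192 form and also gave 4, 5 and 5 arrays. The wild-type mice (WT, Pon1+/+) gave 6, 6 and 3 arrays. The promoter of the transgenes, the state of the mouse gene in the transgenic lines, the number of founder lines and the hour of tissue collection are not given in the sources used here. The questions addressed are whether either dose shifts the clock genes, whether their level differs between genotypes, and whether the dose effect differs between genotypes.

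In mammals the clock is a loop of transcription and translation. The proteins CLOCK and BMAL1 (gene Arntl) bind E-boxes and switch on the Per and Cry genes, whose proteins then return to the nucleus and repress CLOCK and BMAL1. The receptors REV-ERBα (Nr1d1) and REV-ERBβ (Nr1d2) are further targets and repress Arntl in a second loop. DBP and TEF bind D-boxes and pass the rhythm on to other genes. In most tissues the transcripts of Per, Nr1d1 and Dbp peak hours apart from that of Arntl, and the cerebellum has such rhythms in its own cells. Per1 and Per2 are also induced by glucocorticoids and by cyclic AMP signalling.

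Several arrays and labels stand apart and bear on what follows. Pon1 averaged 10.08 ± 0.194 in KO-labelled arrays (SD, n = 12), against 5.19 ± 0.237 in WT arrays (SD, n = 15), so the label and the measured transcript go opposite ways. Q192 arrays averaged 10.10 and R192 arrays 10.13 for the same probe set. The sources used here do not give the part of Pon1 that the knockout removes, and the group is called KO-labelled throughout. Xist, a transcript of female cells, was above 11 in 3 arrays (WT 0.35 replicates 1 and 2 and KO-labelled vehicle replicate 4) and at most 5.99 in the others, and sex is not labelled. The array descriptions carry a number whose meaning the labels do not give. There were 36 such numbers, 17 of them shared by more than 1 array (36 arrays in all), and the number of KO-labelled 0.35 replicate 5 is also that of R192 0.35 replicates 3 and 4. The labels do not say that each array is a separate animal, so the p-values speak only of the spread among these arrays, which may be technical. The 14 granule neuron markers, which define the main neuron of the cerebellum, were all measured, and their mean lay between 9.23 and 11.35 in every array. In whole tissue, fewer cells of a type and less RNA per cell cannot be told apart.

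The DNA ahead of the annotated starts was read first, because the loop is defined by what binds there. RefSeq promoter windows (GRCm38.p6) were found for 9 of the 10 genes, 13 windows in all. Per2 had no entry. Within the 250 bases upstream of each start, 4 motifs were searched on both strands: the E-box CACGTG, the D-box TTATGTAA or TTACGTAA, the receptor site AGGTCA read by REV-ERB and ROR receptors, and the cyclic AMP response element TGACGTCA. The 5 windows printed here each hold at least 1 of them, in capitals, and each position counts upstream from the annotated start to the first base of the match. The Per1 window (chr11:69098699-69098948, plus strand) holds an E-box at -166 and a receptor site, on the other strand, at -137. The Cry1 window (chr10:85185055-85185304, minus strand) holds an E-box at -60 and the Tef window (chr15:81802423-81802672, plus strand) one at -127. The Per3 window (chr4:151044666-151044915, minus strand) holds a D-box at -205 and another at -158, and the Nr1d2 window (chr14:18239107-18239356, minus strand) a receptor site at -77.
Per1: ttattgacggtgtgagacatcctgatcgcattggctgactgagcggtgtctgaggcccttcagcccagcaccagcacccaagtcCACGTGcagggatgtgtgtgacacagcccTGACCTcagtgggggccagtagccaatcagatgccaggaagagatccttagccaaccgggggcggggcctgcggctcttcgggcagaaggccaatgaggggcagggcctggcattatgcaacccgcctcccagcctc
Cry1: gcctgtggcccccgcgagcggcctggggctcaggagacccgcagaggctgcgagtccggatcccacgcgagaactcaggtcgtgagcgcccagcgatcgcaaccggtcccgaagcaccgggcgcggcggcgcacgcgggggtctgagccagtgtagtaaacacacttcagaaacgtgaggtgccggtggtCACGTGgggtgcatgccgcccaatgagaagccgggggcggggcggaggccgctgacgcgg
Tef: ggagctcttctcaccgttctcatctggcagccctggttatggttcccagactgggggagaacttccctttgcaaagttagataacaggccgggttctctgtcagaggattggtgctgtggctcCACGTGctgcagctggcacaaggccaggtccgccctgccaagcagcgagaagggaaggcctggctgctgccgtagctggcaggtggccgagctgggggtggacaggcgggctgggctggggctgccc
Per3: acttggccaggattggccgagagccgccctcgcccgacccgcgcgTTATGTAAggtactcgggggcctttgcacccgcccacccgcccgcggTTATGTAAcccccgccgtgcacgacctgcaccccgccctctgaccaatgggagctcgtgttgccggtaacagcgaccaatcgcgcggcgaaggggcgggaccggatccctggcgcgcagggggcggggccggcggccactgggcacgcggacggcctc
Nr1d2: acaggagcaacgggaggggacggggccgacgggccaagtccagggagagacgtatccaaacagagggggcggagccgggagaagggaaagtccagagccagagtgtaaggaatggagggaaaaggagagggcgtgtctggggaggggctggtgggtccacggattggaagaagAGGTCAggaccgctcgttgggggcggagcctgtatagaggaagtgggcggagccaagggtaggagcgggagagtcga
A second Tef start also has an E-box, at -138, and 1 of the 3 Clock starts has a receptor site at -119. No letters of these motifs were found in the windows of Dbp, Nr1d1 and Cry2. Over all 32851 promoter windows of the same length, 6.02% hold the E-box, 0.931% the D-box, 14.0% the receptor site and 1.55% the cyclic AMP response element. A match is a description of the letters and was not linked to any measured binding.

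The genes differed in how far they moved across the 55 arrays. Nr1d1 ranged from a low of 9.30 in KO-labelled vehicle replicate 1 to a high of 11.13 in WT vehicle replicate 1, a span of 1.82. Per1 spanned 1.60, between 7.60 in R192 0.5 replicate 5 and 9.20 in WT 0.35 replicate 1. Dbp, Cry1 and Cry2 spanned 1.27, 1.37 and 1.19, and Per2 spanned 1.02. The narrowest were Clock with 0.71, Per3 with 0.70, Tef with 0.55 and Nr1d2 with 0.53. With the group and the array date removed, the residual SD was 0.316 for Nr1d1, larger than that of 98.2% of the genes tested, 0.248 for Dbp, 0.238 for Per1 and 0.218 for Cry2. It was 0.0955 for Nr1d2, which was below that of most genes, and the median was 0.178 for the 10 clock genes and 0.130 for all genes tested.

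Group means gave the following order. For the Per genes, Per1 was lowest in Q192 at 0.5 (8.06 ± 0.069, SD, n = 5) and highest in WT vehicle arrays (8.74 ± 0.241, SD, n = 6). The Per1 mean of R192 at 0.5 was also 8.06, and the means of the KO-labelled groups (8.49, 8.51 and 8.65 at vehicle, 0.35 and 0.5) lay closer together than the arrays within them. Per2 ran between 7.63 in R192 at 0.5 and 8.04 in WT at 0.35, where the 2 arrays of high Xist, at 8.54 and 8.31, stood above the other 4 at 7.83 to 7.86. Per3 ran between 8.08 in WT vehicle arrays and 8.31 in KO-labelled vehicle arrays. For the cryptochromes, Cry1 ran between 8.54 in R192 at 0.5 and 9.002 in WT at 0.35, and Cry2 between 8.75 in Q192 at 0.5 and 9.27 in KO-labelled arrays at 0.5. Nr1d1 ran between 9.70 in WT at 0.5 and 10.43 in KO-labelled arrays at 0.5, and Dbp between 9.64 in Q192 at 0.5 and 10.09 in KO-labelled arrays at 0.5. Clock, whose protein activates the others, had its lowest mean, 10.20, in KO-labelled arrays at 0.5, where Cry2, Nr1d1 and Dbp had their highest, and its own highest, 10.52, in R192 at 0.5. The group means of Tef (9.71 to 9.90) and Nr1d2 (10.93 to 11.10) stayed within 0.2 of each other. In 106 of the 110 steps between neighbouring group means of a gene, the step was smaller than the smaller SD of the 2 groups. Steps between means put in order are small by construction, so this count does not tell whether groups farther apart in the order differ.

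**Figure D1:**
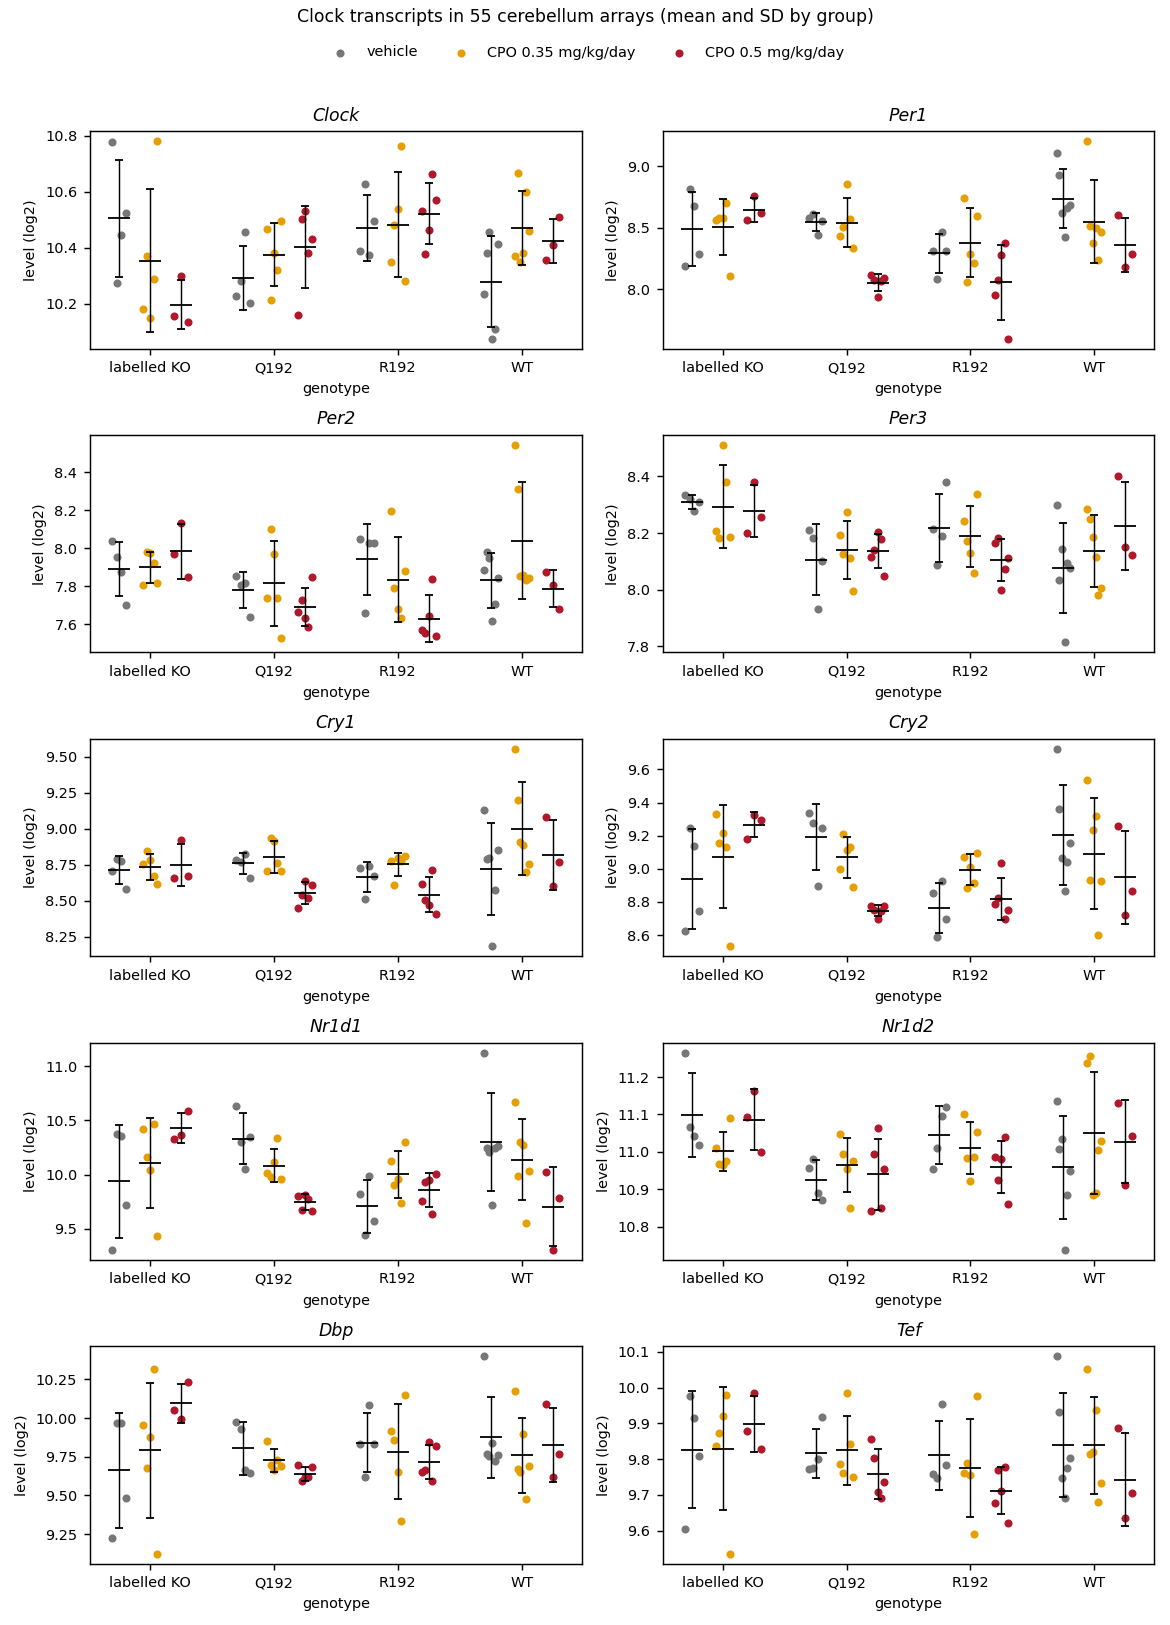
Log2 expression level of each clock gene (vertical axis) in the 12 groups (horizontal axis), 1 panel a gene; points are arrays, bars the mean and SD. Nr1d1 and Per1 spread most and Nr1d2 and Tef least, and in Q192 the 5 arrays at CPO 0.5 lie below the 4 vehicle arrays for Per1, Nr1d1 and Cry2.

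No clock gene passed the test for CPO against vehicle in any genotype. The test was limma's moderated test in 1 fit of all arrays, with p adjusted over the 14950 genes by Benjamini and Hochberg's method and a threshold of 0.05. The smallest adjusted p among the 80 differences of a clock gene was 0.111. At 0.35 mg/kg/day, 0 of 10 clock genes passed in KO-labelled, Q192 and R192 arrays, where 0% of all genes did in each, and 0 of 10 in WT arrays, where 0.00669% did. At 0.5, 0 of 10 passed in KO-labelled, Q192 and R192 arrays, again beside 0% of all genes in each, and 0 of 10 in WT arrays, where 1.04% did. On the mean of the 4 genotypes, 0 of 10 and 0% of all genes passed at either dose. At an unadjusted p under 0.05 limma gave 0, 0, 0 and 1 clock genes at 0.35 in KO-labelled, Q192, R192 and WT arrays (963, 306, 536 and 3032 of all genes) and 3, 3, 1 and 2 at 0.5 (1913, 1974, 152 and 3276 of all genes). The mean of genotypes gave 0 clock genes at 0.35 and 1 at 0.5, beside 274 and 724 of all genes. Among the 80 differences 10 had a 95% interval without 0. The intervals, which are not adjusted for the number of genes, reached a median of 0.244 to either side. The adjusted test asks for more than that, and differences of -0.60 and 0.51 did not pass it. A difference that did not pass is therefore not shown to be absent. The intervals and standard errors assume a correlation of 0.131 between arrays that share a number. The clock genes' own correlation had a median of 0.514. The intervals may therefore be too narrow for these genes, and the count of 10 without 0 too high.

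The differences farthest from 0 in either direction were at the higher dose, and both were those of Nr1d1, the gene of REV-ERBα. In KO-labelled arrays it was at 10.33, 10.37 and 10.59 with CPO at 0.5, against 9.30, 10.38, 10.36 and 9.71 with vehicle, and the difference was 0.51 (SE 0.237, limma adjusted p = 0.387). The 3 treated arrays, of 2 numbers, lie beside the 2 higher vehicle arrays and above the 2 lower ones. In WT arrays Nr1d1 was at 10.02, 9.30 and 9.78 with CPO at 0.5, against 11.13, 10.25, 10.21, 9.72, 10.25 and 10.27 with vehicle, a difference of -0.60 (SE 0.222, limma adjusted p = 0.111). The ranges overlap through vehicle replicate 4 at 9.72, and the 3 treated arrays again carry 2 numbers. In Q192 arrays it was at 9.80, 9.67, 9.81, 9.78 and 9.66, against 10.64, 10.30, 10.05 and 10.34 with vehicle, with no overlap and a difference of -0.59 (SE 0.209, limma adjusted p = 0.332). In R192 arrays the difference was 0.15 (SE 0.209), with an interval of -0.27 to 0.57.

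Per1, the period gene that also responds to glucocorticoids, followed Nr1d1 in Q192 arrays. Its levels there were 8.11, 8.07, 7.94, 8.06 and 8.09 with CPO at 0.5, against 8.58, 8.61, 8.44 and 8.56 with vehicle. The 2 groups, of 3 numbers each, did not overlap, and the difference was -0.49 (SE 0.157, limma adjusted p = 0.332). It was 0.16 in KO-labelled arrays, -0.25 in R192 arrays and -0.39 in WT arrays, and on the mean of the 4 genotypes -0.24 (SE 0.0826, limma adjusted p = 0.991). Cry2, the partner of PER in repression, was between 8.70 and 8.78 in Q192 arrays at 0.5, against 8.90 to 9.34 with vehicle, again with no overlap and with a difference of -0.45 (SE 0.146, limma adjusted p = 0.332). Its difference was 0.33 in KO-labelled arrays, 0.05 in R192 arrays and -0.25 in WT arrays. With array quality weights in place of the number correlation, all 3 genes passed in Q192 at 0.5 (adjusted p = 0.0153 for Per1, 0.0136 for Nr1d1 and 0.00967 for Cry2) and so did Nr1d1 in WT at 0.5 (adjusted p = 0.0105). That setting treats arrays that share a number as independent, so its p-values do not allow for likeness within a number. The share of all genes that passed in it is not given here.

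Markers of the granule neuron are given beside these differences. In Q192 at 0.5 minus vehicle 0 of 14 granule markers were above 0, with a median difference of -0.43 and a range of the array means of 10.21 to 10.61 with CPO and 10.64 to 10.97 with vehicle. In WT at 0.5, 1 of 14 was above 0, with a median of -0.19 and array means of 9.74 to 10.66 with CPO and 9.23 to 11.35 with vehicle. In KO-labelled arrays at 0.5, 11 of 14 were above 0, with a median of 0.14 and array means of 10.80 to 11.14 with CPO and 10.39 to 10.92 with vehicle. The part of these markers in the clock gene differences was not tested. With a covariate for the first principal axis of all genes, the differences in Q192 arrays were -0.33 for Per1, -0.25 for Nr1d1 and -0.22 for Cry2, and that of Nr1d1 in WT arrays was -0.16. That axis was taken from all arrays with the group differences left in. It can therefore hold part of the differences it is meant to adjust for, here and wherever it is used below.

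Of the remaining clock genes at 0.5, Dbp was 10.05, 9.996 and 10.23 in KO-labelled arrays with CPO, against 9.22, 9.97, 9.97 and 9.49 with vehicle, a difference of 0.45 (SE 0.184, limma adjusted p = 0.387). The treated arrays lie above every vehicle array, of which 2 are close to them. Clock was 10.15, 10.30 and 10.14 in the same treated arrays, against 10.78, 10.28, 10.44 and 10.52, a difference of -0.32 (SE 0.122, limma adjusted p = 0.387). Per2 in R192 arrays was 7.57, 7.55, 7.64, 7.84 and 7.54 with CPO at 0.5, against 8.05, 7.66, 8.03 and 8.03 with vehicle. Vehicle replicate 2 lies within the treated range, and the difference was -0.31 (SE 0.116, limma adjusted p = 1). Per3, Nr1d2, Cry1 and Tef had no interval without 0 at this dose.

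At 0.35 the one interval without 0 was that of Cry1 in WT arrays, where the levels were 9.56, 9.20, 8.91, 8.89, 8.70 and 8.75 with CPO, against 9.13, 8.79, 8.80, 8.19, 8.57 and 8.85 with vehicle. The difference was 0.26 (SE 0.108, limma adjusted p = 0.165). The highest treated arrays are those of high Xist, and without the arrays of high Xist the difference was 0.07 (SE 0.104). It was also 0.07 with the mean of the brainstem and midbrain markers as a covariate. In this comparison 1 of 25 brainstem and midbrain markers was above 0, with a median of -0.38.

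**Figure D2:**
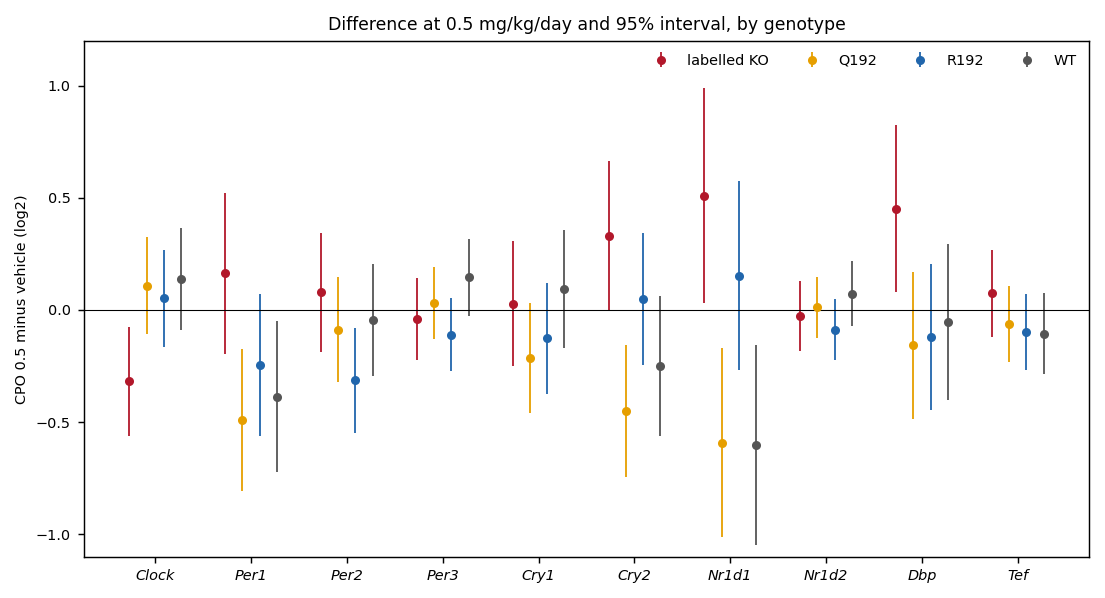
Difference of each clock gene between CPO at 0.5 mg/kg/day and vehicle (log2, with its 95% interval) in KO-labelled, Q192, R192 and WT arrays. The differences of Nr1d1 lie at 0.51, -0.59, 0.15 and -0.60 in that order, and those of Nr1d2, Per3 and Tef all include 0.

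Whether the dose effect differs between genotypes was tested as a difference of differences in the same fit. At 0.5, Nr1d1 passed between KO-labelled and WT arrays: the CPO effect was higher by 1.11 in the KO-labelled arrays (SE 0.326, 95% interval 0.46 to 1.77, limma adjusted p = 0.0385). It was the only one of the 10 clock genes to pass, beside 9.2% of all genes tested, so 1 in 10 is close to the share of genes in general. Clock (-0.46, limma adjusted p = 0.0652), Cry2 (0.58, adjusted p = 0.0823), Per1 (0.55, adjusted p = 0.119) and Dbp (0.50, adjusted p = 0.161) came next and did not pass. The median over the 10 clock genes was 0.15 and over all genes 0.05. Beside them, 13 of 14 granule markers were above 0, with a median of 0.32.

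The call on Nr1d1 depends on the arrays and on the setting. It was lost when any 1 of 8 of the 16 arrays was left out (KO-labelled 0.5 replicate 1 or 3, KO-labelled vehicle replicate 1 or 4, WT 0.5 replicate 2 or 3, WT vehicle replicate 1 or 5), and over all 16 the value ran between 0.86 and 1.26, with adjusted p between 0.016 and 0.182. With the correlation within a number set to that of the clock genes, the value was 1.22 and the adjusted p 0.144. With a covariate for the first principal axis it was 0.24 (adjusted p = 0.98). With the arrays of high Xist left out it was 1.06 (adjusted p = 0.0611), and it was 1.01 and 1.09 within the first and the second array date (adjusted p = 0.623 and 0.124).

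At 0.35 between KO-labelled and WT arrays, 0 of 10 clock genes passed, beside 0.00669% of all genes. Nr1d1 differed by 0.38 (SE 0.276, limma adjusted p = 0.387) and Clock, with the smallest p, by -0.35 (SE 0.142, limma adjusted p = 0.124). At an unadjusted p under 0.05 limma gave 1 clock gene and 3740 of all genes. Between R192 and Q192, 0 of 10 passed at either dose, beside 0% of all genes at each. Limma gave 0 and 2 clock genes at an unadjusted p under 0.05 for the lower and the higher dose, beside 831 and 1036 of all genes. Those 2 were Nr1d1 (0.74, SE 0.295, limma adjusted p = 0.672) and Cry2 (0.50, SE 0.207, limma adjusted p = 0.672). All 14 granule markers were above 0 in that comparison, with a median of 0.46.

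Between genotypes, on the mean of the 3 treatments, Per1 was the only clock gene to pass in any of 6 comparisons. It was lower in R192 arrays than in KO-labelled arrays. The R192 arrays ran between 7.60 and 8.75 with a median of 8.28, and the KO-labelled arrays between 8.11 and 8.82 with a median of 8.58. The ranges overlap over most of their length, and the difference was -0.30 (SE 0.0924, 95% interval -0.48 to -0.11, limma adjusted p = 0.045). This is 1 of 10 clock genes beside 5.61% of all genes. Against the WT arrays, which ran between 8.18 and 9.20 with a median of 8.52, the Per1 difference of R192 arrays was -0.31 and did not pass (SE 0.09, limma adjusted p = 0.0834).

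The other clock genes did not pass between R192 and KO-labelled arrays. Nr1d1 differed by -0.28, Cry2 by -0.21 and Per3 by -0.12, and Clock by 0.13. In all, 1 of 10 was above 0, with a median of -0.10 (0.01 over all genes). Of the granule markers, 0 of 14 were above 0, with a median of -0.20 and array means of 10.24 to 10.72 in R192 arrays and 10.39 to 11.14 in KO-labelled arrays, and 21 of 25 brainstem and midbrain markers were above 0, with a median of 0.15. With the brainstem markers as a covariate the Per1 difference was -0.25 (adjusted p = 0.0664), and with the first principal axis -0.20 (adjusted p = 0.145). Leaving out the arrays of high Xist gave -0.32 (adjusted p = 0.0172).

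The Per1 call is close to the threshold. Leaving out any 1 of 17 of the 26 arrays ended it, with adjusted p of 0.0513 to 0.109 and differences throughout of -0.34 to -0.26. Those were KO-labelled 0.35 replicates 1 to 4, 0.5 replicates 2 and 3 and vehicle replicates 2 and 3, and R192 0.35 replicates 2, 3 and 4, 0.5 replicates 1, 2 and 5 and vehicle replicates 1, 2 and 4. With the clock genes' own correlation within a number the difference was -0.28 (adjusted p = 0.215), and in vehicle arrays alone -0.19 (adjusted p = 0.825). Within the first and the second date it was -0.26 and -0.32 (adjusted p = 0.416 and 0.129). Without KO-labelled 0.35 replicate 5, whose number is shared with R192 arrays, it was -0.34 (adjusted p = 0.00897), and in that setting 5 of 10 clock genes passed. The share of all genes that passed without that array is not given here, so the count is not read as particular to the clock genes.

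In the other genotype comparisons none of the 10 passed. This holds for KO-labelled against WT (0.375% of all genes passed), Q192 against WT (0.455%), R192 against WT (0.87%), Q192 against KO-labelled (0.401%) and R192 against Q192 (0.0736%). At an unadjusted p under 0.05 limma gave 1, 1, 3, 3 and 1 clock genes in these 5, beside 730, 703, 1934, 1425 and 1490 of all genes. Per3, the period gene with the narrowest spread, differed by 0.15 in KO-labelled against WT arrays (SE 0.048, limma adjusted p = 0.365) and by -0.17 in Q192 against KO-labelled arrays (SE 0.0475, limma adjusted p = 0.128). Nr1d2 and Per2 differed by -0.12 and -0.16 in Q192 against KO-labelled arrays. Cry1 differed by -0.15 in Q192 and by -0.20 in R192 against WT, and Cry2 by -0.22 in R192 against WT. The Cry1 difference of Q192 against WT changed sign in vehicle arrays alone. The highest Cry1 value, 9.56, was that of WT 0.35 replicate 1, an array of high Xist. Clock differed by 0.13 between R192 and Q192. Dbp and Tef had intervals that include 0 in all 6 comparisons.

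Of 24 other genes of the loop listed, 21 were tested. Arntl, the gene of CLOCK's partner BMAL1, had group means between 8.39 in WT at 0.5 and 8.76 in KO-labelled arrays at 0.35, and passed in no comparison. Its paralogue Arntl2 averaged 7.37 in KO-labelled, 7.39 in Q192 and 7.44 in R192 arrays, against 7.10 in WT arrays. It was higher than in WT by 0.26, 0.27 and 0.32 (limma adjusted p = 0.0137, 0.00241 and 0.00018), the 1 of 21 to pass in each of these 3. Of all genes, 0.375%, 0.455% and 0.87% passed in them. Ciart, a repressor of CLOCK and BMAL1, was lower in R192 than in KO-labelled arrays by a difference of -0.33 (limma adjusted p = 0.0344). In that comparison 5.61% of all genes passed. Ciart has 2 probe sets, with means of 8.64 and 8.09, and all its values here are those of the higher one. Bhlhe40, an E-box repressor, had a CPO effect at 0.5 higher by 0.67 in KO-labelled than in WT arrays (limma adjusted p = 0.0406). For that difference of CPO effects 9.2% of all genes passed. The group means of Hlf, the relative of DBP and TEF, ran between 8.78 and 9.01, those of Nfil3, their repressor, between 7.75 and 8.15, and those of Bhlhe41 between 9.26 and 9.60. Rora and Rorb, receptors that activate where REV-ERB represses, ran between 10.23 and 10.59 and between 8.62 and 8.97.

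The genes of related pathways that passed are read beside the shares of all genes given above, 5.61% for R192 against KO-labelled arrays and 9.2% for the difference of CPO effects at 0.5 between KO-labelled and WT arrays, and 0.375%, 0.87% and 1.04% for KO-labelled against WT, R192 against WT and CPO at 0.5 in WT arrays. Nothing is read about a list from these counts. Of 18 tested clock-controlled output genes, Rgs16, a brake on G protein signalling (-0.24), and Klf9 (-0.17) were lower in R192 than in KO-labelled arrays (limma adjusted p = 0.0329 and 0.0495). Klf9, a zinc finger factor that also responds to glucocorticoids, had a CPO effect at 0.5 higher by 0.55 in KO-labelled than in WT arrays (limma adjusted p = 0.037). Pdk4, a mitochondrial kinase that restrains pyruvate use, was higher in KO-labelled than in WT arrays by 0.54 (limma adjusted p = 0.00211). Of 15 tested glucocorticoid-responsive genes, which include Klf9 and Pdk4, the kinase gene Sgk1 was lower in R192 than in KO-labelled arrays (-0.41, limma adjusted p = 0.0176), Nfkbia, the inhibitor of NF-κB, lower in R192 than in WT arrays (-0.21, adjusted p = 0.0147) and Errfi1, an inhibitor of the EGF receptor, lower with CPO at 0.5 than with vehicle in WT arrays (-0.40, adjusted p = 0.0323). Errfi1 also had a CPO effect at 0.5 higher by 0.48 in KO-labelled than in WT arrays (limma adjusted p = 0.0375). Of 24 immediate early genes, Dusp1, a phosphatase of MAP kinases, was lower in R192 than in WT arrays (-0.53, limma adjusted p = 0.0278), and Egr1 (0.60) and Ier5 (0.50) passed in the same difference of CPO effects (limma adjusted p = 0.0419 and 0.0405), as did Crtc1, a coactivator of CREB (0.68, adjusted p = 0.0385) among 12 cyclic AMP response genes. Counts as small as 2 in 24 and 1 in 12 do not place a list above or below the 9.2% of all genes in that comparison. The same holds for the other lists named here.

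The clock genes were more alike between arrays that share a number than most genes are. For each gene, the correlation of residuals within a number was estimated after removal of group and date, where 1 means equal values and 0 no likeness, and it is given as a description with no test. Its median was 0.514 over the 10 clock genes and 0.136 over all 14950 genes, and 10 of 10 clock genes were above that median, with 8 above the upper quartile of 0.308. It was 0.689 for Dbp, higher than in 99.0% of genes, 0.663 for Per2, 0.590 for Per1, 0.578 for Tef and 0.531 for Nr1d2. Per3 had 0.498, Nr1d1 0.446 and Cry2 0.356, and Clock (0.308) and Cry1 (0.266) were the lowest. Among the rest of the loop, Hlf (0.597), Ciart (0.588), Bhlhe41 (0.561) and Arntl (0.471) were also high, while the median of the 21 was 0.257.

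The same holds in plain differences between arrays of 1 group. Over 19 pairs of arrays with the same number, Per2 differed by a mean of 0.115, against 0.215 over 85 pairs with other numbers. Dbp differed by 0.167 in pairs with the same number, against 0.274 in the others, Per1 by 0.173 against 0.286, and Tef by 0.093 against 0.150. Clock (0.178 against 0.183) and Cry1 (0.187 against 0.198) differed about as much either way, and the median gene did too (0.143 against 0.147). For example, the Dbp residuals of KO-labelled vehicle replicates 2 and 3, which share a number, were 0.28 and 0.33, and those of KO-labelled 0.35 replicate 5 and R192 0.35 replicates 3 and 4 were -0.69, -0.11 and -0.43. The last 3 come from 2 genotypes.

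**Figure D3:**
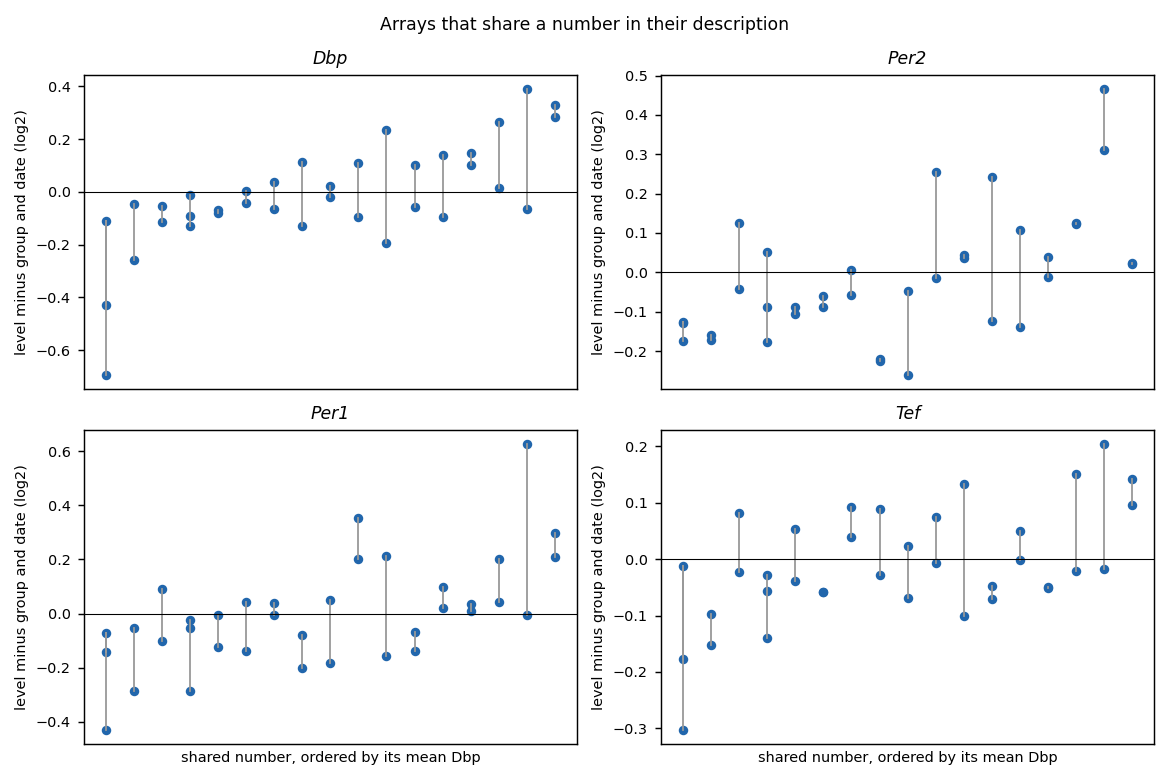
Residuals of Dbp, Per2, Per1 and Tef (log2, group and date removed; vertical axis) for the 17 shared numbers (horizontal axis, ordered by mean Dbp residual), with arrays of 1 number joined by a line. For Dbp the lowest number holds residuals of -0.69, -0.11 and -0.43 and the highest 0.28 and 0.33.

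Cell type markers did not share this likeness to the same extent in every list. The median correlation within a number was 0.0412 for 14 granule markers and 0.089 for 10 Purkinje markers, but 0.414 for 13 oligodendrocyte markers and 0.353 for 12 markers of Bergmann glia and astrocytes. Glucocorticoid-responsive genes had 0.406, cyclic AMP response genes 0.462 and clock-controlled output genes 0.397. After removal of the 2 leading axes of the residuals, which hold 29.7% and 21.2% of their variance, the median of the clock genes was 0.598 (0.0817 over all genes), with Arntl at 0.883, higher than in 99.9% of genes. Cry2 then had 0.159 and Cry1 -0.33. The median was 0.585 for glucocorticoid-responsive genes, 0.469 for cyclic AMP response genes and 0.429 for clock-controlled output genes in this setting, and 0.164 for oligodendrocyte markers, so the likeness is not particular to the clock genes. Without the arrays of high Xist the clock genes had a median of 0.489 and all genes 0.0937, with Cry1 at -0.14, beside 0.448 for glucocorticoid-responsive and 0.454 for cyclic AMP response genes. The array date did not separate the clock genes: 0 of 10 passed between the 2 dates, where 15 genes (0.1003%) did, and limma's smallest adjusted p among them was 0.268, for Nr1d2.

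**Figure D4:**
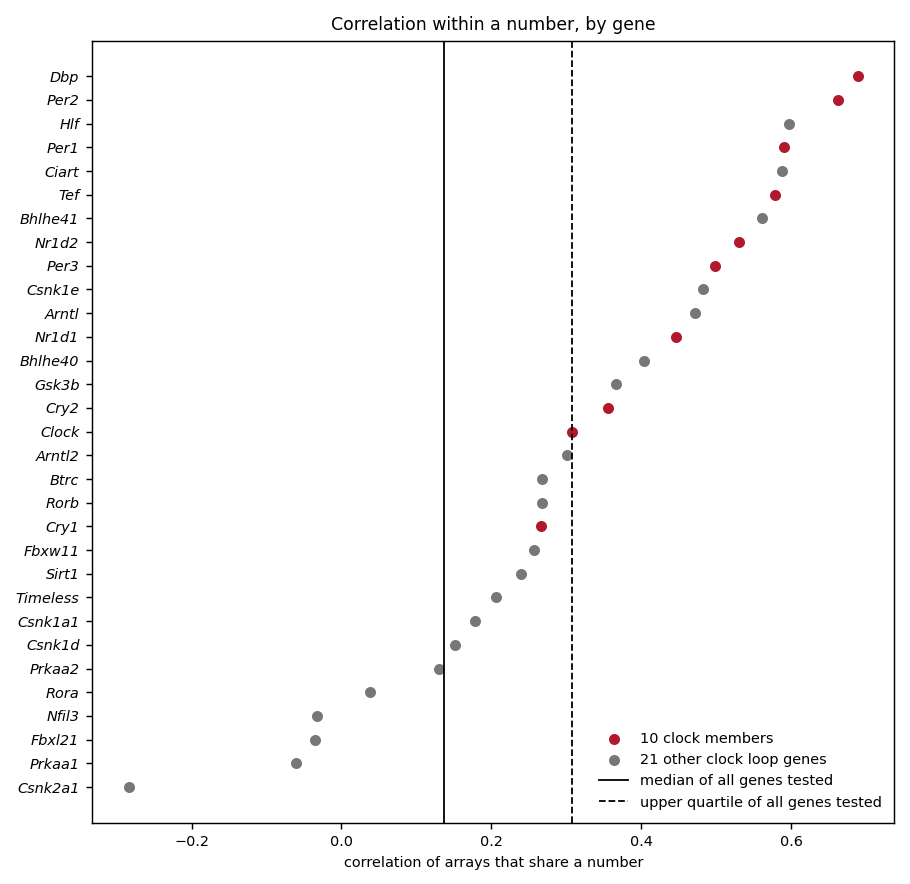
Correlation of residuals within a shared number for the 10 clock genes and 21 other loop genes (horizontal axis), with lines at the median (0.136) and upper quartile (0.308) of the 14950 genes tested. Dbp, Per2, Per1 and Tef lie highest among the clock genes and Clock and Cry1 lowest.

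The clock genes also moved together. Residuals were averaged within each number and group and centred on their group mean, which gave 37 values a gene. Fewer than 37 of them are free, and in a group of 2 numbers the values mirror each other. The number found in 2 groups gave a value in each. Each of the 45 pairs was tested by permutation of these values within groups (100000 permutations, two-sided, p adjusted over the 45 pairs, smallest unadjusted p possible 1e-05). By Pearson's r, 32 of 45 pairs passed, 26 with a positive and 6 with a negative sign, and every negative one involved Clock. Spearman's rho gave 31. The share of all gene pairs that would pass this permutation test was not computed. The strongest pair was Dbp and Nr1d1, with r = 0.908 (permutation p, adjusted, 0.0003) and rho = 0.848 (0.00034). Nr1d1 and Cry2 followed with r = 0.897 and rho = 0.849 (permutation p, adjusted, 0.0003 and 0.00034), and Cry2 and Tef with r = 0.824 and rho = 0.741 (permutation p, adjusted, 0.00054 and 0.001). Per1 and Per2 gave r = 0.624 and rho = 0.628 (permutation p, adjusted, 0.0028 and 0.0047). Clock ran against Cry2 with r = -0.759 and rho = -0.672 (permutation p, adjusted, 0.0033 and 0.0047) and against Dbp with r = -0.748 and rho = -0.632 (permutation p, adjusted, 0.0045 and 0.0051).

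Nr1d2 stood off from its paralogue. Its r with Nr1d1 was 0.0315 and its rho 0.028 (permutation p, adjusted, 0.88 and 0.9), while with Per2 it was r = 0.624 and rho = 0.569 (permutation p, adjusted, 0.014 and 0.012). Each of the 32 pairs kept its sign over all 55 arrays and within each of the 2 array dates. Without the 2 numbers farthest from the median, 30 passed, and r was 0.887 for Dbp and Nr1d1, 0.605 for Per1 and Per2 and -0.612 for Clock and Cry2. Without the arrays of high Xist, 29 passed.

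These correlations are read beside those of all genes, which share the same arrays. Over all 111743775 pairs of genes and 55 arrays, the median absolute r was 0.223, and 13.4% of pairs reached 0.5. Over the 45 clock pairs the median was 0.537, and 24 (53.3%) reached 0.5. With the 2 leading axes of the residuals removed, a setting chosen after seeing the data, 1.70% of all gene pairs reached 0.5, against 11 of 45 clock pairs (24.4%), and the medians were 0.152 and 0.402. In that setting 14 of the 45 pairs passed, and 13 of the 32 kept both call and sign. Dbp and Nr1d1 (r = 0.722), Per1 and Per2 (0.673), Per2 and Cry1 (0.635) and Per3 and Clock (-0.67) were among them (permutation p, adjusted, 0.0063, 0.0079, 0.0086 and 0.0079). Nr1d1 and Cry2 (0.368) and Clock and Cry2 (-0.42) were not (permutation p, adjusted, 0.12 and 0.087), and Per1 and Nr1d2 (0.554) newly passed (permutation p, adjusted, 0.04).

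**Figure D5:**
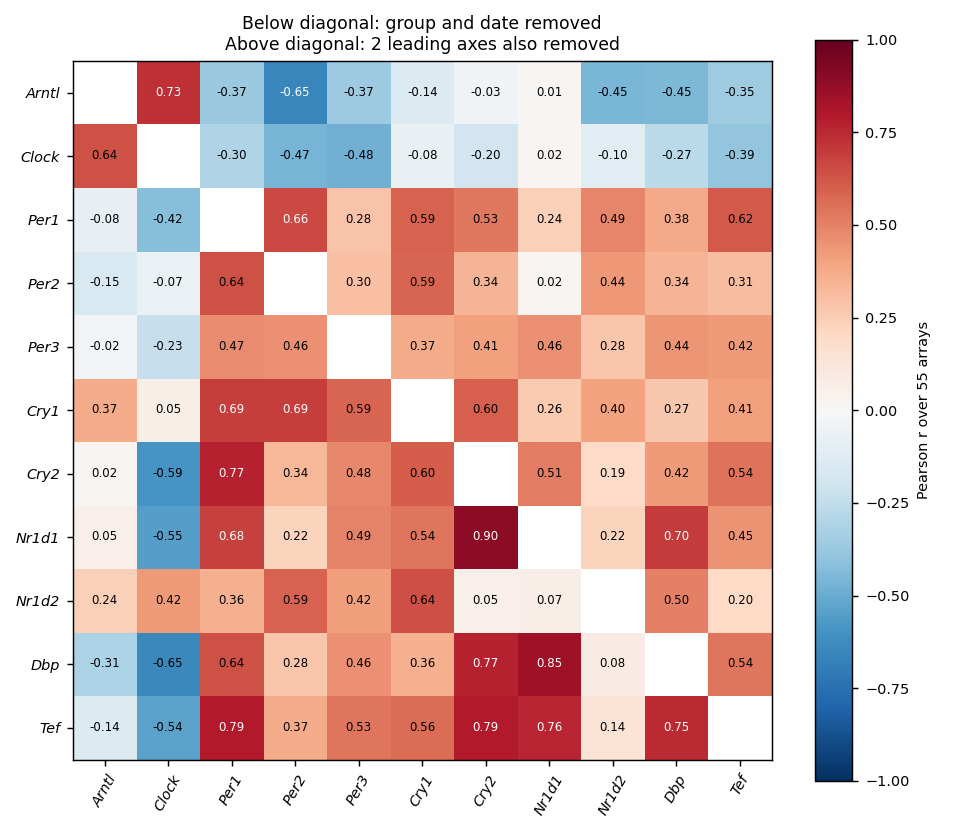
Pearson r between residuals of the 10 clock genes and Arntl over 55 arrays; below the diagonal with group and date removed, above it with the 2 leading axes removed too. Clock is negative with Dbp, Nr1d1, Cry2 and Tef below the diagonal, and above it Arntl is positive with Clock (0.73) and negative with Per2 (-0.65).

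Each clock gene was last set against every other tested gene, by Pearson r over the residuals of the 55 arrays, which share date, scaling and tissue makeup. The 3 genes most like Per1 were Tef (0.793), Acap3 (0.778) and Flcn (0.773), and those most like Per2 were Cry1 (0.692), Nr4a2 (0.682) and Nr4a3 (0.673). Per3 had Mthfd1l (0.721), Aloxe3 (0.652) and Med12 (0.650). Dbp had Nr1d1 first (0.850), then Gpr37l1 (0.817) and Hnrnpul1 (0.812). Nr1d1 had Crmp1 (0.939), Nfix (0.936) and Sptb (0.929), and Dbp came only at rank 159 of 14949. Nr1d2 had Arhgap21 (0.832), Scyl2 (0.812) and Rif1 (0.810). Clock had N4bp2l2 (0.909), Zfp933 (0.903) and Hltf (0.903), with Arntl at rank 1343 (0.636). Cry1 had Celf1 (0.860), Rtn4rl1 (0.854) and Usp2 (0.840), and Cry2 had Irf2bpl (0.925), Crmp1 (0.923) and Nos1 (0.911). Tef had Cry2 (0.793), Per1 (0.793) and Coq8a (0.787).

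With the 2 leading axes removed the neighbours changed. Per1 and Per2 were each other's nearest gene (r = 0.657). Dbp had Ciart (0.696), Nr1d1 (0.696) and Bhlhe41 (0.684) as its nearest 3, and Nr1d1 had Mtf2 (0.782), Prnp (0.716) and Dbp (0.696). Clock had Rpe (0.736), then its protein's partner gene Arntl (0.732) and Ermn (0.719). Nampt (0.636), the gene of an enzyme of NAD synthesis, was nearest to Nr1d2. Arntl lay at the far end for several clock genes, at rank 14945 of 14949 for Per2 (r = -0.65), 14911 for Nr1d2 (-0.45), 14869 for Dbp (-0.45) and 14658 for Per1 (-0.37). For Nr1d1, whose protein represses Arntl, it lay at rank 7914 (0.00969), and for Cry2 at rank 8218 (-0.03). With the axes kept, Arntl was at rank 10554 for Per2 and 3568 for Nr1d2. Cry1, Cry2, Per3 and Nr1d2 had no gene of the loop among their nearest 3 in this setting, and Tef had Per1 at rank 3 (0.616).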

How the data were processed

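Per the submitters' processing notes, the authors made the values with Affymetrix Expression Console 1.1 and RMA, which corrects background, scales arrays to 1 distribution and summarises probes. The deposited values were taken as log2 levels (1.15 to 14.80), although no base is named. Nothing further was normalised, and array medians lay between 7.37 and 7.54. Of 35557 probe sets, 21789 had 1 gene symbol in the platform annotation, 1621 several and 12147 none. Where a gene had several probe sets, the one of highest mean was used. Genes whose mean level lay above the 25th percentile (6.44) entered, without 3 sex-linked ones. One limma 3.58.1 fit (R 4.3.3) of all 55 arrays held a mean for each of 12 groups, the array date (2 dates) and a correlation of 0.131 between arrays of 1 description number, leaving 42 degrees of freedom. Adjustment of p-values was within each of 20 comparisons by Benjamini and Hochberg's method. For arrays, their number limits the precision. Correlations used Python 3.11.15, numpy 2.4.6, pandas 2.3.3 and scipy 1.17.1, and figures matplotlib 3.10.9. The fit without the number correlation was tested on simulated data with independent arrays, so likeness within a number was not part of that check. Alternatives changed the date term, number correlation, filters, probe sets, weights, covariates and arrays.

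The clock genes and gene lists were chosen with earlier results of these data known. All 10 clock genes are named. From each pathway list the genes that passed, at most the 6 of smallest p a comparison, were named, with 9 further loop genes by level and the 3 genes most like each clock gene. Npas2, 1 of those 9, fell below the filter.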

Additional observations from a re-analysis of the deposited data

Results flagged for a closer look

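Within groups of 4 to 6 arrays, 100 checks of a clock gene for an array far from the others (Dixon's test, which by chance points to about 1 group in 20) pointed to 7 values in 6 arrays. KO-labelled 0.35 replicate 5, whose number is shared with R192 arrays, had Per1 at 8.11 (others 8.56 to 8.70) and Cry2 at 8.53 (others 9.13 to 9.33). Q192 0.5 replicate 3 had Per1 at 7.94 (others 8.06 to 8.11), and R192 0.35 replicate 2 had Cry1 at 8.61 (others 8.78 to 8.81). R192 vehicle replicate 2 had Per2 at 7.66 (others 8.03 to 8.05). WT 0.35 replicate 1, an array of high Xist, had Per1 at 9.20 (others 8.24 to 8.52), and WT vehicle replicate 1 had Dbp at 10.40 (others 9.72 to 9.84).

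The effect of CPO at 0.5 on Nr1d1 differed between KO-labelled and WT arrays by 1.11 in the limma test of that difference. For 6 more, of 80 checks, every treated array of 1 genotype lay above its vehicle mean and every treated array of the other below it, and the difference was not tested. Between KO-labelled and Q192 arrays at 0.5 the mean shifts differed by 0.646 for Per1, 0.596 for Dbp, 1.08 for Nr1d1 and 0.770 for Cry2, higher in the KO-labelled arrays. Per1 shifted by 0.07 to 0.26 in the 3 KO-labelled arrays and by -0.61 to -0.43 in the 5 Q192 arrays. Between KO-labelled and R192 arrays Tef differed by 0.17, and between R192 and WT arrays Per3 by -0.26.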

How the results depend on the processing

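The 32 named differences of a clock gene were recomputed under 1147 alternatives in all: 1057 kept direction and side of the threshold, 40 lost and 46 gained a call, and 4 changed sign. The 4, whose cause was not tested, are Cry1 in Q192 against WT (0.0219) and Clock in R192 against KO-labelled arrays (-0.041), both from vehicle arrays alone, and, with a covariate for the first principal axis, the difference of CPO 0.5 effects between KO-labelled and WT arrays for Clock (0.0117) and Cry2 (-0.00689). Of the 200 differences of a clock gene over the 20 comparisons, 83 kept their sign in every alternative. Counts of clock genes that passed changed in 10 of 20 comparisons. The counts below are not set beside the share of all genes that passed in the same setting. Nothing particular to the clock genes is therefore read from them. Array quality weights left out the number correlation. With these weights the counts were 2 for CPO 0.5 in WT, 3 in Q192 and 1 on the mean of genotypes. In the same setting they were 1 for KO-labelled against WT, 3 for R192 against WT, and 7 each for Q192 and R192 against KO-labelled. For R192 against KO-labelled (1) the count was 0 with 1 value per number, no level filter, either covariate, the clock genes' own number correlation, either date or vehicle arrays alone, and 5 without KO-labelled 0.35 replicate 5. For the KO-labelled against WT difference of CPO effects at 0.5 (1) it was 3 with 1 value per number, 2 with genes above the median level, brainstem markers as a covariate or without KO-labelled 0.35 replicate 5, and 0 with no level filter, the first axis, the clock genes' own number correlation, without high Xist or in either date. Leaving that array out, or the second date alone, gave 1 for the difference at 0.35 in place of 0. The second date also gave 1 for CPO 0.35 in WT. Leaving that array out, or vehicle arrays alone, gave 1 for R192 against WT. Leaving out each array gave 0 to 5 for R192 against KO-labelled (5 without KO-labelled 0.35 replicate 5, 3 without KO-labelled vehicle replicate 1), 0 to 3 for the difference at 0.5 (3 without KO-labelled vehicle replicate 2, 2 without WT vehicle replicate 3) and 0 to 1 at 0.35 (1 without KO-labelled 0.35 replicate 5). It gave 0 to 2 for R192 against WT (2 without WT vehicle replicate 4, 1 without WT 0.35 replicate 5), 0 to 1 for CPO 0.35 in WT (1 without WT vehicle replicate 1) and 0 to 1 for CPO 0.5 in WT (1 without WT vehicle replicate 4). With 2 leading axes removed, 14 pairs passed in place of 32. Replicate numbers of the titles do not pair the samples: 265 same-numbered pairs across groups had a median residual r of 0.018, with 103 above 0.1, beside -0.004 for 1116 others. With a replicate block the counts were 0 for R192 against KO-labelled and 2 for the difference at 0.5, and no other count changed.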
